A study of Mus musculus with 5 samples.

Results

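The 39 genes described here encode enzymes that make and recycle glutathione, pass reducing power through thioredoxin, or remove peroxides, superoxide and reactive electrophiles. They were taken by their listed gene symbols from the feature tables of 4 droplet single-cell libraries of mouse kidney, in which all 39 symbols were found among 28692 gene identifiers. The rule is a list of symbols with no threshold on a measured value, and it was drawn up with earlier results of these data known. The libraries came from C57/BL6 mice aged 8 weeks: a sham-operated kidney (day 0), kidneys 2 and 7 days after the ureter on that side had been closed (unilateral ureteric obstruction, UUO), and kidneys 7 days after that obstruction was reversed (experimental day 14). Each library pooled 3 mice, and kidneys were digested on ice and sorted for live cells before droplet 3′ library preparation. With 1 library for each group there is no replicate, so no test between groups was possible, and every interval below covers counting error alone. Differences between mice, surgeries and library preparations cannot be told apart from the differences between groups.

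Glutathione is a small thiol peptide made in 2 steps. Glutamate-cysteine ligase, built from a catalytic subunit (Gclc) and a modifier subunit (Gclm), makes the precursor, and glutathione synthetase (Gss) completes it. Glutathione peroxidases spend glutathione on peroxides, glutathione S-transferases couple it to electrophiles, and glutathione reductase (Gsr) restores the reduced form with NADPH. The thioredoxin system runs in parallel through thioredoxin, its reductase and the peroxiredoxins. Proximal tubule cells, which reabsorb most of the filtrate and are rich in mitochondria, make and break down much of the kidney's glutathione, and they are the source of the plasma glutathione peroxidase Gpx3. Many of these genes are known targets of the transcription factor NRF2 (Nfe2l2), which binds antioxidant response elements and is held back by Keap1.

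Promoter sequence was looked at because many genes of this kind are described as carrying that element. RefSeq promoters on GRCm38.p6, from 250 bases before to 50 bases after each annotated start, matched 33 of the 39 symbols, and Gclc, Gsr, Gsta4, Gstt2, Prdx6 and Sod3 had no entry in the table. The core of the element was searched as TGACNNNGC on either strand (GCNNNGTCA on the opposite strand), a motif whose first letters also occur in the AP-1 motif TGACTCA, and overlap between them was not counted. It was present for 10 of the 33 genes (30.3%), against 14.0% of the 27025 gene symbols in the same table. A symbol counted if any of its starts matched, and 6 of the 33 genes had several starts. Counted by promoter, the share over all 32851 was 12.4%. The 10 were G6pdx, Gclm, Ggt1, Gsta3, Gstm5, Mgst1, Prdx1, Sod1, Srxn1 and Txnrd1. A match of these letters is a description and not evidence of binding. Shown here are the matches, in capitals with up to 30 flanking bases on each side and written along the gene's strand, of 5 genes whose levels are described below. They lie on the plus strand at chr6:138140441-138140509 (Mgst1), chr3:122245393-122245461 (Gclm), chr4:116685436-116685504 (Prdx1), chr10:82859084-82859152 (Txnrd1) and chr2:152105522-152105573 (Srxn1).
Mgst1: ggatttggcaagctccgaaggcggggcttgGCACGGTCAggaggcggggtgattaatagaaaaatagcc
Gclm: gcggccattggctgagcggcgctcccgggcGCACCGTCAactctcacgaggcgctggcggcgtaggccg
Prdx1: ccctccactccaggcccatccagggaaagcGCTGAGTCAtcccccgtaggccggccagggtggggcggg
Txnrd1: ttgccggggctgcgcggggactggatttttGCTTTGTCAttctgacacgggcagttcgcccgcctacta
Srxn1: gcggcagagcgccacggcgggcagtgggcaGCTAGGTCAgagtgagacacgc
All 5 windows carry the core in the opposite orientation, at -56 for Mgst1, -134 for Gclm, -133 for Prdx1, -92 for Txnrd1 and 28 for Srxn1, counted from the RefSeq start to the first base of the match.

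After filtering, 3651 sham, 2147 day 2, 4285 day 7 and 3127 reversed cells remained, with median depths of 2634, 6515, 5641 and 4862 UMIs (unique molecular identifiers, each standing for a captured transcript) and median mitochondrial shares of 33.6%, 10.0%, 2.96% and 8.42%. Pairs of libraries shared 16 to 39 deposited cell barcodes. Cells were placed in gates by marker genes, so a gate name below means cells that resemble that type by its markers, and all markers of a gate were detected in its own cells in each library. The proximal tubule gate held 2672, 410, 146 and 1028 cells in the sham, day 2, day 7 and reversed libraries, the thick ascending limb gate 190, 258, 135 and 190, and the phagocyte gate 53, 464, 1998 and 488. Smaller gates were distal convoluted and connecting tubule (51 to 128 cells a library), collecting duct principal cells (67 to 117) and intercalated cells (46 to 134). Clustering did not separate the distal gate from the thick ascending limb, and 278 of its 357 cells lay in 2 clusters with 656 cells of that gate. Its own markers summed to 12519, 3017, 3642 and 5506 CPM and thick ascending limb markers in it to 6850, 1396, 2023 and 3515 CPM, and the part of this in the distal levels and ratios was not tested. UMIs were summed over the cells of a gate and given as CPM, the counts per 1000000 non-mitochondrial UMIs, with exact Poisson 95% intervals. Ratios between libraries are log2 ratios with 1 CPM added to each level, followed in brackets by an exact binomial 95% counting interval. A gene was set against a fold of 2 (a log2 ratio of 1 or more in size) where the libraries compared held at least 30 of its UMIs together (an assessed gene below), and the share of all genes past that fold is printed as the background. The background belongs to the main scaling. Counts under an alternative have no such share beside them unless one is printed.

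In the sham kidney the proximal tubule gate held the highest level of 21 of the 39 genes among 5 tubule gates, and for 14 of these its counting interval lay apart from that of the next gate. Over all genes with 30 UMIs in a gate the shares were 18.8% and 6.57%. The proximal tubule gate held 5653900 UMIs against 128768 to 467027 in the other tubule gates, so its intervals are the narrower ones. The genes of glutathione supply showed this pattern in most cases. Gclm, the modifier subunit of the rate-limiting ligase, stood at 269.9 CPM in proximal tubule cells and at 103 CPM in intercalated cells, the next gate. Gss stood at 151 CPM against 45.7 CPM in principal cells, and Gsr at 241 CPM against 118 CPM. Gclc, the catalytic subunit, had the opposite layout. It was lowest in the proximal tubule (54.5 CPM) and highest in principal (274 CPM) and intercalated cells (255 CPM), whose intervals overlapped. Ggt1, the brush-border enzyme that breaks down extracellular glutathione, was about level in the thick ascending limb (522 CPM) and the proximal tubule (477 CPM), and 49.5 CPM in principal cells.

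The peroxidases were also proximal. Gpx3, which is secreted into plasma, reached 57236 CPM in sham proximal tubule cells, 4.05-fold its level in the distal gate, and Gpx1, the main cytosolic form, reached 5272 CPM, 3.65-fold the level of that gate. Gpx4, which repairs lipid peroxides, stood at 2604 CPM, 2.22-fold the level of the thick ascending limb. Among the enzymes that remove superoxide and peroxide, the extracellular Sod3 (273 CPM) and catalase (685 CPM) were highest in the proximal tubule, 5.03-fold and 2.45-fold above the next gate. The other tubule gates also held free proximal tubule RNA. In the sham distal gate the tracer genes described below stood at a median of 16.5% of their proximal tubule level. The part of this RNA in the folds given here and in the next paragraph was not tested. Mitochondrial Sod2 differed little between the tubule gates, with a range of 1.26-fold.

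The glutathione S-transferases differed in the gate where each was highest. Gsta2 (774 CPM) and Gstm5 (413 CPM) were proximal, 5.25-fold and 3.32-fold above the next gate. Gstm2 was nearly absent from the proximal tubule (9.55 CPM) and stood at 578 CPM in principal cells, 4.50-fold above the thick ascending limb and 60.6-fold above the proximal tubule, the widest range of any of the 39 genes in the sham library. Gstt1 was also highest in principal cells (514 CPM). Gsta4, which acts on products of lipid peroxidation, stood at 24.6 CPM in the proximal tubule and at 94.2, 91.3, 98.8 and 132 CPM in the thick ascending limb, principal, intercalated and distal gates. Membrane-bound Mgst1 was lowest in the proximal tubule (111 CPM) and highest in the thick ascending limb (462 CPM). Gsta3 (119 CPM in the proximal tubule, 23.3 CPM in the distal gate) and Gstp1 (98.8 CPM in intercalated cells, 1 UMI in the distal gate) had highest gates whose intervals overlapped the next. Genes of the alpha, mu, pi and theta transferase families have close copies, among them Gsta1 beside Gsta2 and Gstp2 beside Gstp1, so the split of UMIs within a family is uncertain.

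Srxn1 and Nqo1 also had a range of 4-fold or more between the tubule gates. Srxn1 in the sham stood at 125 CPM in intercalated cells and 30.4 CPM in principal cells. Nqo1 stood at 77.7 CPM in the distal gate (10 UMIs) and 21.0 CPM in the proximal tubule, the next gate, with intervals apart, and 1 UMI was found in intercalated cells. A further set did not reach that range in the sham but did in later libraries, of which the first is given. At day 2 Prdx4 stood at 76.1 CPM in principal and 11.8 CPM in thick ascending limb cells, and Gsto1 at 211 CPM in intercalated and 38.0 CPM in principal cells. Gstm1 and Gstt2 were then highest in the proximal tubule (339 and 214 CPM) and lowest in the distal gate (61.5 and 45.5 CPM). At day 7 Gstt1 stood at 277 CPM in principal and 58.7 CPM in proximal tubule cells, and Sod1 at 352 CPM in the proximal tubule and 78.3 CPM in the distal gate.

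**Figure D1:**
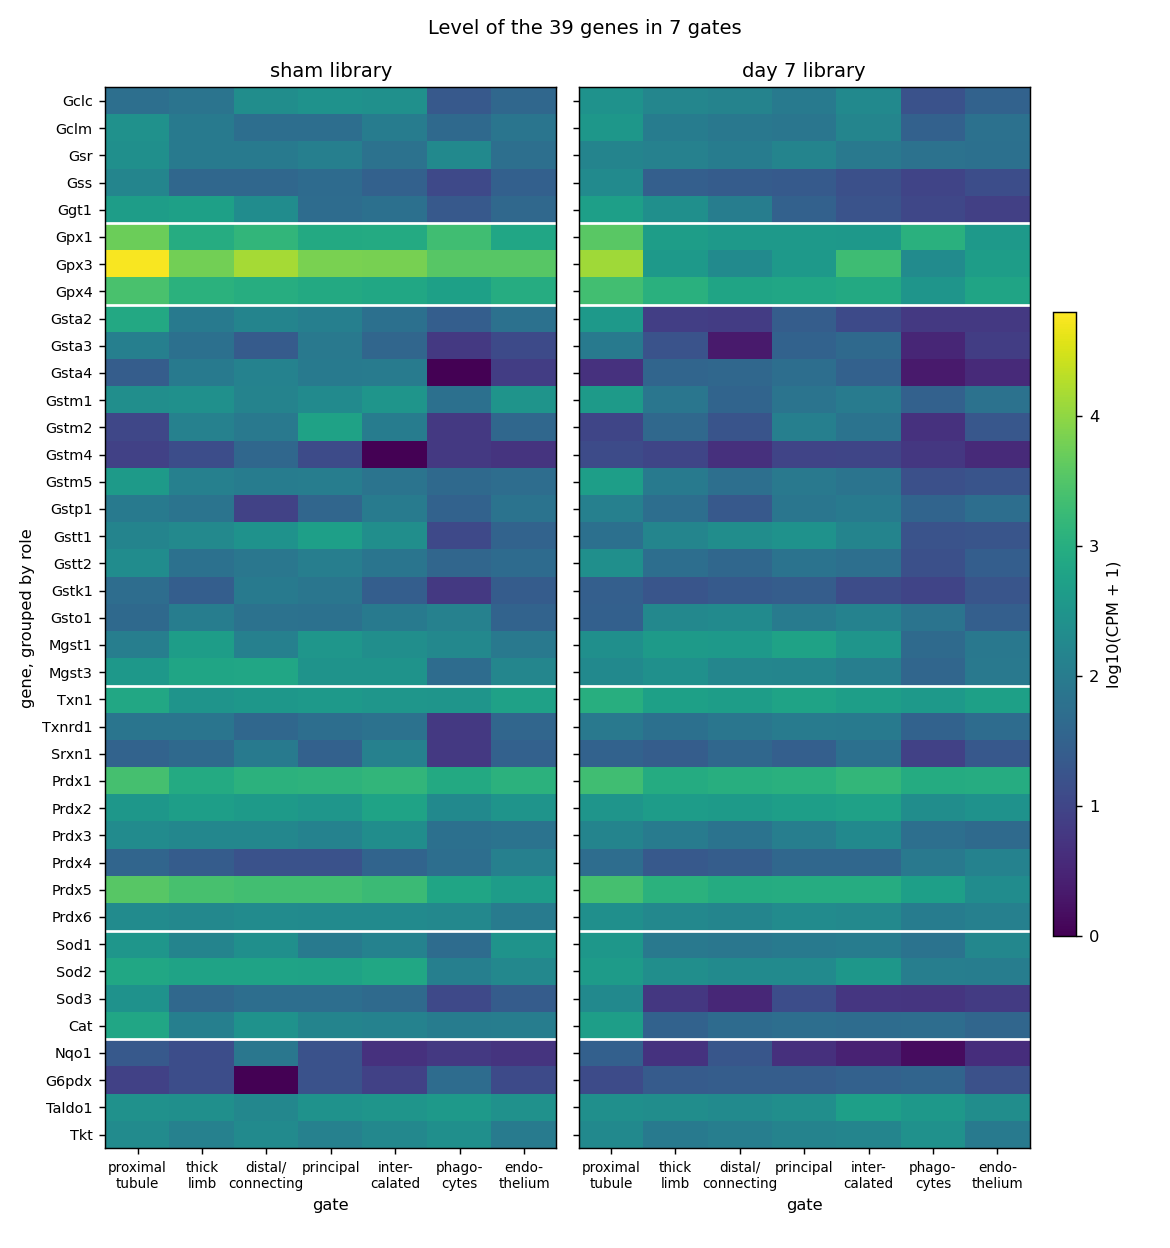
Levels of the 39 genes (rows, grouped by role and separated by white lines) in 7 gates (columns) of the sham and day 7 libraries, as log10 of CPM plus 1 (colour). The proximal tubule column is brightest for the peroxidases, Gsta2 and Gstm5 in both libraries, while Gstm2 is brightest in principal cells, at 578 CPM in the sham library.

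Genes of the proximal tubule also gave UMIs in the rarer gates, beside tracers of free proximal tubule RNA. The tracers, 8 proximal tubule genes used in no gate (Kap, Pck1, Slc22a6, Akr1c21, Ttc36, Slc22a12, Cyp2e1 and Gatm), stood at medians of 10.95%, 9.35% and 10.97% of their proximal tubule level in sham thick ascending limb, principal and intercalated cells, and Gpx3 at 10.5%, 11.9% and 11.4% of its own. Gpx3 in these sham gates was thus at the level of the tracers. In the sham distal gate the tracers stood at a median of 16.5% (7.79% to 24.8%) and Gpx3 at 24.7%, near the highest of them. In the day 7 library the tracer medians of thick ascending limb, principal and intercalated cells were 0.653%, 1.09% and 0.703%. At day 7 the proximal tubule was still the highest gate for 23 of the 36 genes with enough UMIs (background 23.3%), for 19 of them with intervals apart (11.3%).

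Summed over the gate, Gpx3 in intercalated cells stood apart from the other distal gates in the libraries after the sham. Its level there was 6515, 6035, 2053 and 2709 CPM in the sham, day 2, day 7 and reversed libraries, against 6812, 1814, 375 and 1832 CPM in principal cells. As a share of the proximal tubule level the intercalated values were 11.4%, 15.5%, 16.0% and 8.79%, while the highest of the 8 tracers in that gate reached 8.97% at day 2, 3.68% at day 7 and 6.73% after reversal. By its summed level the gene therefore stood above every tracer in 3 libraries and at the tracer median in the sham. T cells also had Gpx3 above every tracer at day 2 (3.49% against a highest tracer of 3.26%) and after reversal (5.56% against 4.67%), by a smaller margin, and not at day 7. Per intercalated cell the day 2 values were uneven, with a median of 2607 CPM and an upper quartile of 8808 CPM. At day 7 the median was 481 CPM and the upper quartile 1075 CPM, and after reversal they were 1647 and 2113 CPM. Both upper quartiles lay below the summed levels, so a minority of cells carried these. The reversed median was close to those of principal (1511 CPM) and thick ascending limb cells (1557 CPM). The day 7 median was above theirs (154 and 170 CPM). A split chosen after these values were seen set cells with UMIs of Slc26a4 alone (pendrin, the exchanger of type B intercalated cells) beside those with UMIs of Slc4a1 alone (the anion exchanger of type A cells). Slc26a4 cells held 7914 CPM of Gpx3 at day 2 (76 cells, median per cell 5748 CPM) and 3618 CPM at day 7 (51 cells, median 956 CPM). Slc4a1 cells held 1396 CPM (27 cells, median 1349 CPM) and 257 CPM (22 cells, median 238 CPM). Their summed sham levels lay closer together, at 6260 CPM (27 cells, median 5806 CPM) and 5167 CPM (13 cells, median 3259 CPM). After reversal the summed levels were 2789 CPM (47 cells, median 1829 CPM) and 1618 CPM (34 cells, median 1548 CPM). Cells with neither gene had medians of 1355 CPM at day 2 (30 cells), 440.5 CPM at day 7 (58 cells) and 1405 CPM after reversal (24 cells). Their pooled levels were higher, at 4450, 884 and 4499 CPM, so a minority of cells carried them.

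**Figure D2:**
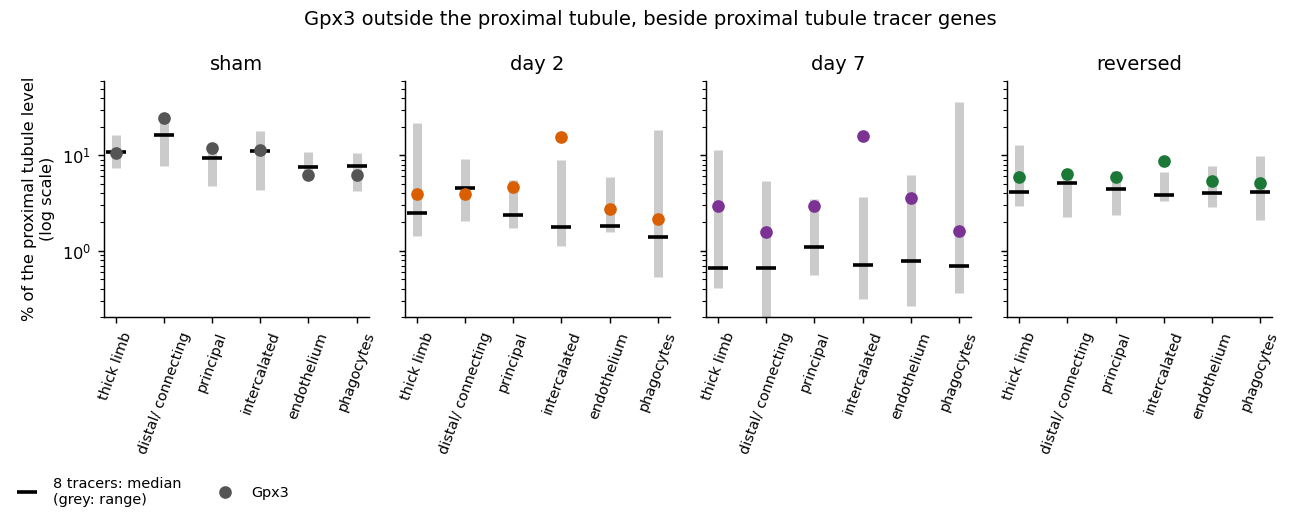
Gpx3 in 6 gates as a percentage of its proximal tubule level in the same library (coloured points, log axis), beside the median (black bar) and range (grey) of 8 proximal tubule tracer genes. In the day 2, day 7 and reversed libraries the intercalated point lies above the grey range, at 15.5%, 16.0% and 8.79%, and in the sham library it lies on the tracer median. At day 7 the lowest distal tracer lies under the axis.

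Within the proximal tubule gate most of the 39 genes stayed within a fold of 2 between libraries. This holds for cells that met the marker rule. Of the kept cells 8.76%, 17.3%, 12.3% and 11.4% in the sham, day 2, day 7 and reversed libraries fell in no gate. Gates taken from clusters held 2935, 630, 260 and 1114 proximal tubule cells. The part of cells that had lost these markers was not tested. From sham to day 2, 1 of 39 genes was past that fold upward (background 5.90% of all genes) and 2 downward (2.36%). From day 2 to day 7, 1 of 36 assessed genes was higher (5.41%) and 2 lower (2.76%). From day 7 to reversal, 1 of 39 was higher (3.96%) and 3 lower (5.00%), and against sham the reversed library held none higher (7.27%) and 1 lower (0.292%). Counts of 0 to 3 genes were near the background, except that the single lower gene after reversal stood against a low one. That count became 3 with TMM factors, which moved the median of all genes by -0.17 and for which no share over all genes is given. The median log2 ratios of the genes were -0.07, -0.03, 0.00 and -0.21 beside 0.08, 0.08, -0.04 and 0.15 for all genes assessed. The split at day 2 depends on the scaling, since CPM over all UMIs left 1 higher and 0 lower. The median mitochondrial share of the gated cells was 34.9%, 24.2%, 21.3% and 31.4%, the gate's own 8 markers summed to 20973, 11645, 12810 and 18274 CPM, and the 8 phagocyte markers to 73.0, 536, 2327 and 992 CPM in this gate. Its neutrophil markers summed to 3.54, 173, 209 and 65.8 CPM. The part of these in the changes below was not tested, except where a value is given.

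Mgst1 (chr6:138140316-138156755 on GRCm38, a glutathione transferase and peroxidase of the endoplasmic reticulum and mitochondrial outer membrane) had the largest ratio of day 2 to sham among the 39 genes in the proximal tubule gate. Gene positions here are those of the GENCODE annotation of that build. The level of Mgst1 in proximal tubule cells was 111, 401, 247 and 86.2 CPM in the sham, day 2, day 7 and reversed libraries. Day 2 was the highest and reversal the lowest, with day 7 between them. The log2 ratio of day 2 to sham was 1.84 (1.68 to 2.00), that of day 7 to day 2 -0.70 (-0.94 to -0.46) and that of reversal to day 7 -1.51 (-1.76 to -1.24). The same order held in both ends of the proximal tubule. Cells of the first segment (S1, 1677, 289, 36 and 698 cells) had 87.7, 336, 217 and 82.2 CPM, and cells of the last segment (S3, 719, 79, 100 and 293 cells) had 159.5, 543, 253 and 97.6 CPM. The day 2 to sham ratio stayed between 1.73 and 2.04 under all 11 alternatives. Phagocytes as a whole held 78.9 and 44.8 CPM at day 2 and day 7, and their monocytes 177 and 282 CPM, the day 7 level with an interval that overlapped the proximal tubule one. The neutrophil gate held 398 CPM at day 2 and 183 CPM at day 7. Its 5 markers summed to 29300 and 19386 CPM there, against 173 and 209 CPM in the proximal tubule gate. The part of these cells' RNA in the Mgst1 ratios was not tested.

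Other transferases moved less, or the other way. Gstm1 stood at 237, 339, 415 and 167 CPM, with its highest level at day 7 and its lowest after reversal, a log2 ratio of -1.30 (-1.50 to -1.11). Within S1 and S3 that ratio was -0.87 and -0.93, short of a fold of 2. Gstt1 stood at 143, 158, 58.7 and 96.7 CPM, lowest at day 7 by a log2 ratio of -1.41 (-1.89 to -0.96) to day 2, which was -0.82 in cells with at most 20% mitochondrial UMIs. Gstk1, the mitochondrial and peroxisomal kappa transferase, was highest in the sham at 49.9 CPM and stood at 21.3, 27.4 and 29.1 CPM in the other libraries, with a day 2 to sham ratio of -1.19 (-1.70 to -0.71). This ratio was short of the fold with CPM over all UMIs, and with a pseudocount of 10 CPM (-0.94). Gsta4 was past the fold in the reversed library against sham, at 8.26 against 24.6 CPM, a log2 ratio of -1.47 (-1.99 to -0.96), and -0.35 within S3. Its day 7 level rested on 3 UMIs. Gstm2 was past the fold at day 2 on 7 UMIs. Gsta2 stood at 774, 574, 401 and 402 CPM and stayed within the fold in all 4 comparisons. The remaining transferases (Gsta3, Gstm4, Gstm5, Gstp1, Gstt2, Gsto1 and Mgst3) were within the fold in all 4 comparisons where assessed.

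The 2 subunits of glutamate-cysteine ligase differed at day 7. Gclc (chr9:77754535-77794485) stood at 54.5, 78.8, 283 and 77.2 CPM, and day 7 was above the 3 other libraries. Its log2 ratio was 1.83 (1.52 to 2.15) for day 7 to day 2 and -1.86 (-2.11 to -1.61) for reversal to day 7. Gclm (chr3:122245557-122270732) stood at 269.9, 289.7, 351 and 271 CPM, with log2 ratios of at most 0.37 in size in the 4 comparisons made. The gate changed in make-up across the same libraries. S3 cells were 719 of 2672 in the sham and 100 of 146 at day 7, and both genes were higher in S3 than in S1. Within S3 Gclc was 92.0, 165, 369.8 and 112 CPM and its day 7 to day 2 ratio 1.16 (0.75 to 1.59). Within S1, where the day 7 library had 36 cells and 19 UMIs of the gene, it was 41.2, 49.0, 87.8 and 63.0 CPM with a ratio of 0.83 (0.02 to 1.58), and the reversal to day 7 ratio there was -0.47. Gclm showed no such difference inside a segment, with 434, 444, 406 and 410.1 CPM in S3 and 201, 226, 208 and 209.9 CPM in S1. Day 7 phagocytes held 15.1 CPM of Gclc, below the proximal tubule level. Gss (151, 120.1, 198 and 149.6 CPM), Gsr (241, 162, 144 and 180.5 CPM) and Ggt1 (477, 285, 509 and 429.7 CPM) stayed within the fold.

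Gpx3 (chr11:54902453-54910377) was lower in every obstructed library and after reversal than in sham proximal tubule cells. Its levels were 57236, 39052, 12859 and 30809 CPM, with day 7 the lowest, and the log2 ratios were -0.55 (-0.56 to -0.54) for day 2 to sham, -1.60 (-1.63 to -1.57) for day 7 to day 2 and 1.26 (1.23 to 1.29) for reversal to day 7. The gene was higher in S1 (69398, 44359, 21239.7 and 37454 CPM) than in S3 (28049, 23508, 9103 and 14878 CPM) in each library, so the larger share of S3 cells at day 7 moved with the gate's level. Within each segment day 7 was still the lowest, with day 7 to day 2 ratios of -1.06 in S1 and -1.37 in S3. The reversal to day 7 ratio was 0.82 and 0.71 in the segments and 0.71 in cells with at most 20% mitochondrial UMIs, short of the fold. Gpx1 (5272, 3747, 3668 and 4113 CPM) and Gpx4 (2604, 2609, 2231 and 2250.3 CPM) moved within the fold.

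**Figure D3:**
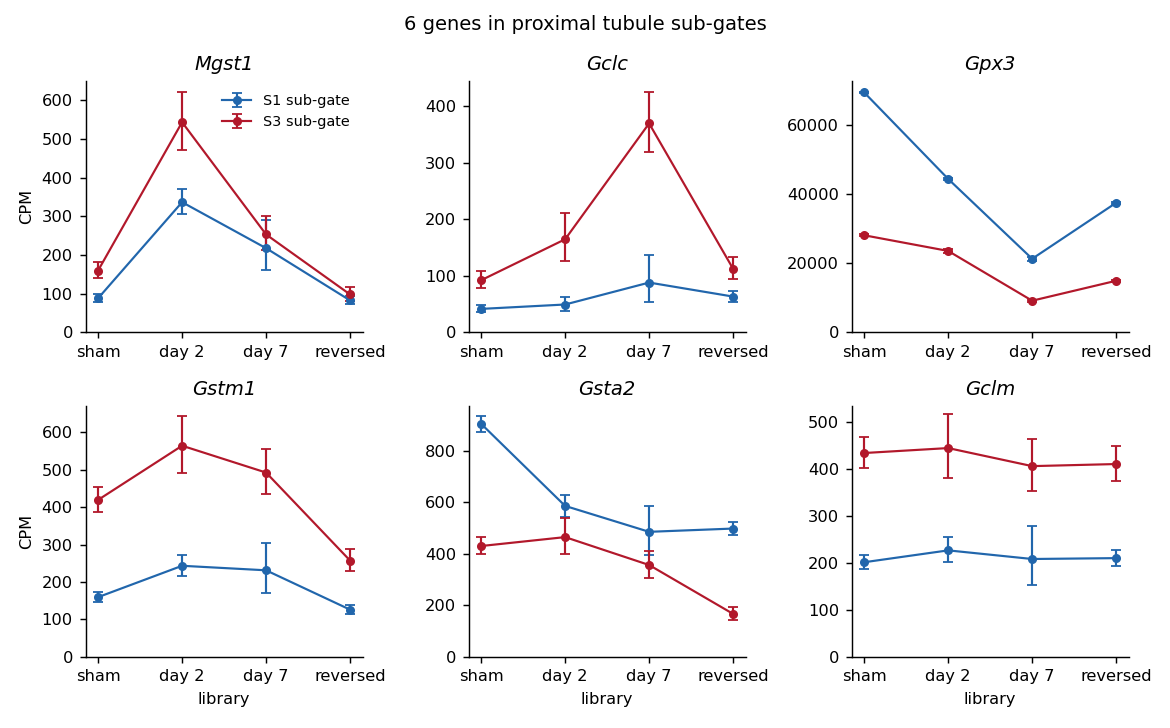
Levels in CPM (points, with exact Poisson 95% intervals) of 6 genes in S1 and S3 cells of the proximal tubule gate in the 4 libraries. The Mgst1 point is highest at day 2 and the Gclc point at day 7 in both segments, Gpx3 is lowest at day 7, and Gclm is about level within each segment. In S1 the day 7 point of Gclc rests on 36 cells, and its interval overlaps that of the reversed library.

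None of the 9 thioredoxin and peroxiredoxin genes passed the fold in the proximal tubule in the 4 comparisons made, and their log2 ratios there lay between -0.45 and 0.57. Prdx1, the abundant cytosolic peroxiredoxin, stood at 2388, 2269.5, 2092 and 1934 CPM, and thioredoxin itself (Txn1) at 749, 924, 999 and 767 CPM. Mitochondrial Sod2 was 735, 432, 428 and 650.2 CPM, lower in both obstructed libraries than in sham and reversed cells but within the fold. Catalase, the peroxisomal enzyme, was 685, 406, 499.7 and 559.6 CPM, Sod1 336, 274, 352 and 379 CPM and Sod3 273, 272, 189 and 215 CPM. Nqo1, a quinone reductase that is a classic NRF2 target, stayed low at 21.0, 16.7, 28.7 and 15.3 CPM. The pentose phosphate genes G6pdx, whose enzyme makes NADPH, Taldo1 and Tkt were also within the fold.

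Proximal tubule cells with a UMI of the injury genes Havcr1 or Krt20 were compared with the others, and the counts past a fold of 2 lay near the share of all genes. At day 2 (77 against 333 cells) 0 of 34 assessed genes were past the fold upward (background 1.46%) and 1 downward (3.10%). That gene was Gsto1, at 22.9 against 46.8 CPM and a log2 ratio of -1.002 (-2.07 to -0.06). At day 7 (35 against 111 cells) 0 of 31 were past it upward (4.25%) and 0 downward (2.94%). Mgst1 stood at 451 CPM in positive and 384 CPM in negative cells at day 2. A UMI of these genes was found in 18.8% and 24.0% of proximal tubule cells at day 2 and day 7 (median depths 4546 and 5620 UMIs), and in 3.88% and 4.50% of phagocytes (10249.5 and 6558 UMIs). Positive cells were also deeper, with 6204 against 4472 and 9505 against 4791 UMIs, so the split is by detection and does not establish injury.

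In the thick ascending limb Gclc was the only gene past the fold upward at day 2. It stood at 70.7, 295, 159 and 105 CPM in the 4 libraries, highest at day 2, with a day 2 to sham ratio of 2.04 (1.54 to 2.59). Gclm did not follow it past the fold (94.2, 134, 103 and 76.4 CPM). Thus 1 of 37 assessed genes was higher at day 2 (background 5.73%) and 8 were lower (9.25%), a count that became 2 higher and 4 lower with CPM over all UMIs and 1 higher and 5 lower with TMM factors. These scalings moved the median of all genes by 0.25 and 0.17, and no share over all genes is given for them. Against sham the reversed library held none of 35 higher (6.96%) and 9 lower (4.90%), or 5 lower with CPM over all UMIs. These 9 were Gpx3, Gsta2, Gsta3, Gsta4, Gstm1, Gstt2, Sod3, Ggt1 and Srxn1. Among the 8 lower genes at day 2, Gpx3, Gsta2, Sod3 and Cat were those highest in the sham proximal tubule with intervals apart. Gpx3 stood at 5983, 1545, 378 and 1833 CPM, Gsta2 at 92.1, 19.0, 6.64 and 15.7 CPM and Sod3 at 40.7, 7.84, 4.98 and 13.7 CPM. The tracer medians in this gate were 10.95%, 2.47%, 0.653% and 4.09% of the proximal tubule level, and the part of free RNA in these ratios was examined only by subtraction, which left 4 of 37 genes higher (7.97% of all genes under the same subtraction) and 3 lower (7.17%) at day 2. Gpx3 turned direction with it, being listed at 0 in the sham and at 579 and 572 CPM at day 2 and after reversal. Sod2 (597, 276, 231 and 311 CPM) and Gstm1 (255, 106, 74.7 and 101 CPM) were highest in the sham, where the tracer level came to 13.5% and 10.2% of theirs. Their day 2 to sham ratios were -1.11 and -1.26, but Sod2 was at -0.25 in cells with at most 20% mitochondrial UMIs and Gstm1 at -0.32 with gates taken from clusters. The summed level of the gate's own 6 markers was 49012, 19791, 15360 and 28142 CPM over the 4 libraries, that of the 8 phagocyte markers 47.1, 505, 1797 and 805 CPM, that of the neutrophil markers 8.56, 180, 145 and 49.9 CPM (in the same order over the libraries as Gclc), and the median mitochondrial share 36.3%, 20.5%, 7.36% and 16.4%. Their part in the ratios of this gate, Gclc included, was not tested, except for the mitochondrial limit given. Mgst1, unlike in the proximal tubule, stayed between 313 and 462 CPM.

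Principal cells of the collecting duct moved in the opposite direction for Gclc. Its level was 274, 128, 94.0 and 129 CPM, highest in the sham, with a day 2 to sham ratio of -1.10 (-1.55 to -0.64). That ratio was not past the fold with CPM over all UMIs, nor with each cell counted equally (-0.85). Mgst1 in these cells was 335, 705, 591 and 413 CPM, highest at day 2 (1.07, 0.74 to 1.41), as in the proximal tubule. Prdx4, the peroxiredoxin of the endoplasmic reticulum, went from 4 UMIs in the sham (15.2 CPM) to 76.1 CPM at day 2, and Gstp1 from 38.1 to 100.5 CPM. Gstm2, the transferase that marks these cells, stood at 578, 215, 119 and 251 CPM, lowest at day 7, with ratios of -1.43 (-1.76 to -1.10) at day 2 and 1.08 (0.68 to 1.47) from day 7 to reversal. Sod2 was 582, 238, 195 and 253 CPM and Gstk1 76.1, 20.4, 24.7 and 20.8 CPM, both highest in the sham.

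Over all principal cells, 3 of 33 assessed genes were higher at day 2 (background 8.13%) and 8 lower (8.17%), or 5 higher and 5 lower with CPM over all UMIs. In the reversed library 1 of 31 was higher than in the sham (7.20%) and 8 lower (6.64%), or 2 higher and 6 lower with that scaling. No share over all genes is given for that scaling. Txnrd1 was the higher gene, at 108 against 53.3 CPM, a log2 ratio of 1.01 that was not past the fold under 3 of 9 alternatives and 0.46 with each cell counted equally. The count of higher genes ranged from 0 to 2 over the alternatives. The gate held 70, 87, 117 and 67 cells in the 4 libraries. Its own 6 markers summed to 20334, 11988, 5853 and 9000.4 CPM, the phagocyte markers to 64.7, 490.3, 2016 and 1178 CPM and the distal markers to 5039, 712, 1293 and 3542 CPM. The neutrophil markers were at 0 in the sham and summed to 223, 167 and 58.2 CPM in the later libraries, so they too were highest at day 2. The median mitochondrial share was 27.7%, 14.9%, 10.0% and 16.1%, and the part of these in the ratios was not tested. The 8 lower genes at day 2 were Gclc, Gpx3, Gsta2, Gstm1, Gstm2, Gstk1, Sod2 and Cat, and after reversal Prdx5 and Gsta3 stood in place of Gstm1 and Cat. Of these Gpx3, Gsta2, Cat and Prdx5 were highest in the sham proximal tubule with intervals apart, and tracer medians here were 9.35%, 2.39%, 1.09% and 4.41%. With the tracer-scaled profile subtracted, the day 2 ratios were -0.73 for Gpx3, -0.16 for Gsta2 and -0.93 for Cat, all short of the fold. The reversed against sham ratios remained past it under that subtraction, at -1.62 for Gpx3, -2.92 for Gsta2 and -1.14 for Prdx5. That subtraction left 5 of 33 genes higher at day 2 (10.9% of all genes) and 5 lower (6.88%). From day 2 to day 7, 1 of 36 genes was past the fold upward (background 5.22%) and 3 downward (2.70%), the latter being Gpx3, Gsta2 and Gsta3. The higher gene was Gsto1, at 38.0 and 97.7 CPM, a log2 ratio of 1.34 that was 0.75 with gates taken from clusters.

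Phagocytes (macrophages, monocytes and dendritic cells) were few in the sham kidney, with 53 cells and 187604 UMIs, so comparisons with that library are coarse. The gate's proximal tubule markers summed to 1162, 147, 92.6 and 566 CPM and its neutrophil markers to 16.0, 195, 236 and 81.8 CPM, and the part of neutrophil RNA in the ratios was not tested. At day 2, 2 of 34 assessed genes were higher than in the sham (background 19.8%) and 6 lower (9.07%), and after reversal 2 of 33 were higher (18.3%) and 5 lower (5.33%). Txnrd1, thioredoxin reductase, was higher, with 1 UMI in the sham and 51.2, 30.7 and 51.6 CPM at day 2, day 7 and reversal. Its day 2 to sham ratio was 3.04 (0.75 to 5.53). The other was Srxn1, sulfiredoxin, which repairs over-oxidised peroxiredoxins, with 1 UMI in the sham and intervals that included 0 for day 2 and for reversal against sham. With each cell counted equally its day 2 ratio changed sign to -0.20 and its reversal ratio of 1.69 was 0.41. The lower genes at day 2 were Gpx3, Gsta2, Gstm5, Gstt2, Ggt1 and Mgst1, and after reversal Gpx3, Gsta2, Gstt2, Mgst1 and Gsr. Gstm5 (42.6, 14.2, 14.2 and 23.1 CPM), Gstt2 (37.3, 13.5, 14.0 and 15.8 CPM), Gsta2 (26.7, 9.30, 5.27 and 11.9 CPM) and Ggt1 (21.3, 8.31, 9.72 and 23.4 CPM) rested on 8, 7, 5 and 4 sham UMIs, and the tracer level came to 74.98%, 44.2%, 225% and 173% of their sham values. The day 2 ratio was -1.52 (-2.55 to -0.30) for Gstm5 and -1.41 (-2.50 to -0.10) for Gstt2, and with the tracer-scaled profile subtracted -0.82 and -0.93, short of the fold. Gsr was lower after reversal, at 192, 187, 63.4 and 69.99 CPM and a ratio to sham of -1.44 (-1.95 to -0.90), which was -0.98, short of the fold, with gates taken from clusters. Mgst1 was lower, at 171, 78.9, 44.8 and 34.7 CPM, with ratios to sham of -1.10 (-1.62 to -0.54) at day 2 and -2.26 (-2.83 to -1.66) after reversal. The day 2 ratio was -0.35 with each cell counted equally and was not past the fold with TMM factors or gates taken from clusters. In the later libraries the gene stood higher in monocytes than in macrophages, and monocytes were 13 of 53 phagocytes in the sham and 212 of 464 at day 2. No level is given for the sham cell types, each under the minimum of 30 cells. Gpx3 (3523, 835, 205 and 1576 CPM) moved with the tracers, whose medians in this gate were 7.75%, 1.39%, 0.686% and 4.10% of the proximal tubule level. The tracer level came to 126%, 65.2%, 43.0% and 80.2% of the Gpx3 measured in phagocytes in the sham, day 2, day 7 and reversed libraries. With the tracer-scaled proximal tubule profile subtracted, 17 of 34 genes were past the fold upward at day 2 (25.6% of all genes under that subtraction) and 1 downward (7.65%). After reversal against sham 8 of 33 were upward (22.9%) and 3 downward (4.95%). Of the upward genes 7 of 17 and 6 of 8 stood over a sham level of 0 after the subtraction and passed through the 1 CPM added. Gpx3 was one of these, at 290 and 312 CPM at day 2 and after reversal, the opposite direction to its ratio without subtraction.

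Day 7 phagocytes had lower levels of most of these genes than day 2 phagocytes, by amounts that were mostly under a fold of 2. The log2 ratio was below 0 for 30 of 37 assessed genes, with a median of -0.49 beside 0.03 for all genes. None was past the fold upward (background 7.61%) and 2 were downward (3.27%), namely Gsr and Gpx3. In the thioredoxin group 0 of 9 genes passed the fold, with ratios from -0.79 to -0.03 and a median of -0.63. Prdx1 stood at 1366 and 882 CPM, Txn1 at 553 and 382 CPM and Txnrd1 at 51.2 and 30.7 CPM at day 2 and day 7. Gpx1, the cytosolic glutathione peroxidase, stood at 1972 and 1130.2 CPM, a ratio of -0.80 (-0.84 to -0.77), and Gclm at 49.5 and 29.99 CPM. Sod1 and Gstt1 went the other way, with ratios of 0.26 (0.07 to 0.46) and 0.47 (0.07 to 0.88). The 8 tracers ranged from 0.535% to 18.3% of the proximal tubule level in phagocytes at day 2 and from 0.364% to 36.5% at day 7. At their median, the tracer level came to 8.17% of Gclm at day 2, and to less than that for Gsr, Gpx1, Sod1 and all 9 thioredoxin genes at both times. For Gpx3 and Gstt1 it was 65.2% and 19.8% at day 2.

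After reversal 29 of 37 assessed genes were above their day 7 level, with a median log2 ratio of 0.33 beside -0.01 for all genes. Past the fold were 5 genes upward (background 2.39%) and none downward (0.925%). Of these 5, Gpx3, Gsta2, Sod3 and Ggt1 were highest in the proximal tubule among the tubule gates in both libraries. In the sham Ggt1 was about level there and in the thick ascending limb. The tracer level in the reversed library came to 80.2%, 139%, 65.0% and 75.3% of the phagocyte level of Gpx3, Gsta2, Sod3 and Ggt1. With the tracer-scaled proximal tubule profile subtracted from each library, the median over the genes was 0.02. The reversal to day 7 ratio of Sod3 was 1.40, and 0.44 with that subtraction. With 10 CPM added in place of 1, Gpx3 alone was past the fold upward. Srxn1 was the fifth, at 7.496 CPM at day 7 and 19.5 CPM after reversal, a ratio of 1.27 (0.84 to 1.69), and its tracer level was 6.86% of the reversed value. Its ratio was 0.75, short of the fold, with 10 CPM added. Txnrd1 (0.73, 0.48 to 0.98), Gclm (0.57, 0.31 to 0.84) and Prdx1 (0.33, 0.28 to 0.39) were higher within the fold, with tracer levels of 6.27%, 24.7% and 7.14%.

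**Figure D4:**
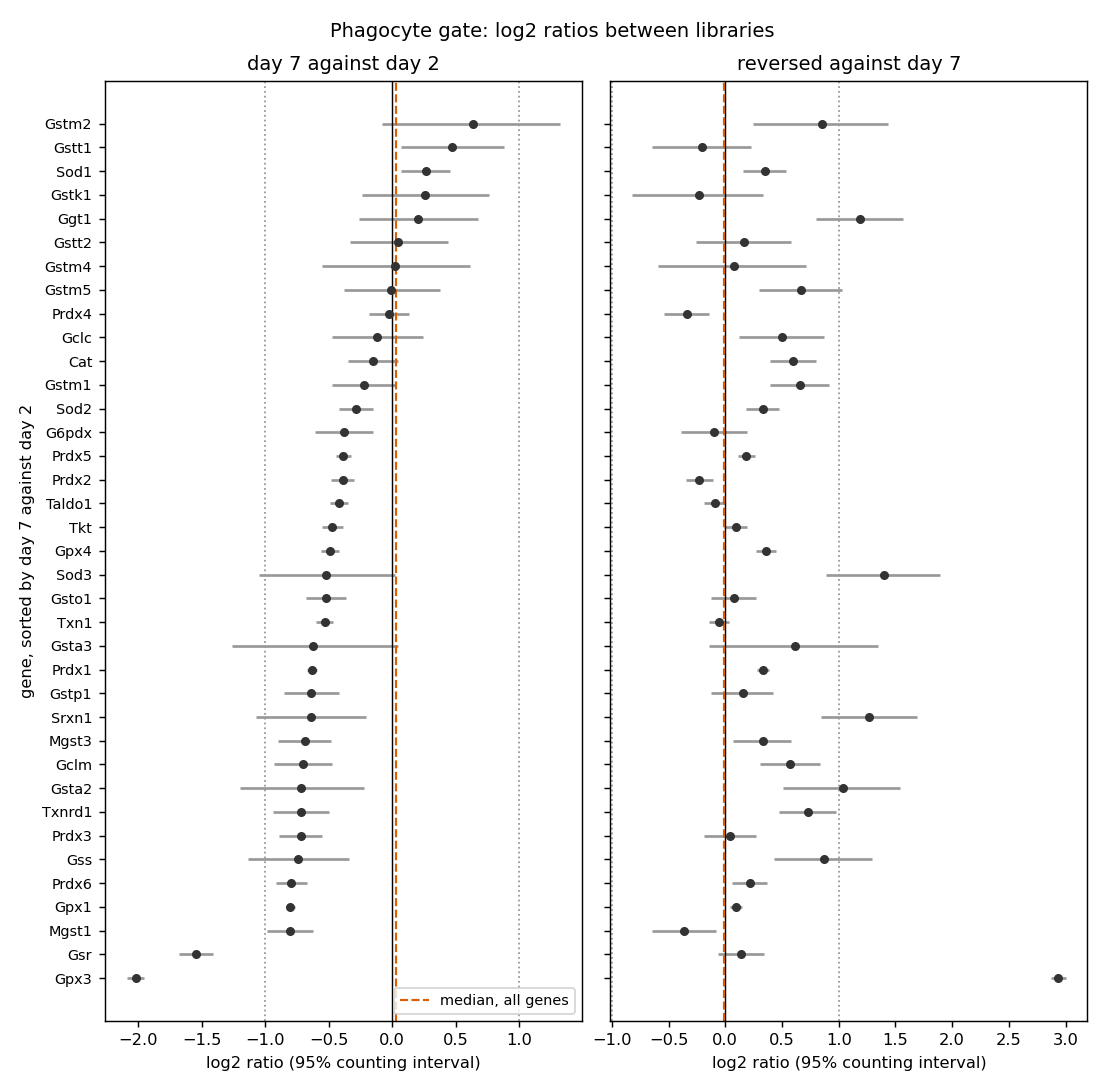
Log2 ratios (points, with exact 95% counting intervals) of the genes in the phagocyte gate for day 7 against day 2 and for reversal against day 7. Most points lie left of 0 in the first comparison (30 of 37) and right of 0 in the second (29 of 37), the dotted lines mark a fold of 2 and the dashed line is the median of all genes.

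The phagocyte gate changed in make-up between these libraries, and Gsr and Mgst1 differed between its cell types by more than a fold of 2. Monocytes (by Ly6c2, Ccr2 and related markers) were 212 of 464 phagocytes at day 2, 181 of 1998 at day 7 and 40 of 488 after reversal, and macrophages (by the C1q chains and related markers) were 163, 1390 and 336. The sham gate had 13 monocytes and 23 macrophages of 53. Cells whose neutrophil marker score was the highest were gated apart (0, 56, 111 and 26 cells), and 108 of these 193 lay in the cluster that held 396 of all 446 monocytes. The neutrophil gate therefore may hold monocytes, and the monocyte counts and levels leave such cells out. Gsr (chr8:33652523-33698163), which restores reduced glutathione, was higher in monocytes than in macrophages and type 2 dendritic cells. It stood at 366, 451 and 539 CPM in monocytes and 86.7, 24.7 and 29.8 CPM in macrophages at day 2, day 7 and reversal, that is 4.22-fold, 18.2-fold and 18.1-fold higher in monocytes. The neutrophil gate held 485 and 393 CPM of it at day 2 and day 7, in the range of the monocytes, and the part of neutrophil RNA in the phagocyte levels was not tested. Type 2 dendritic cells (73.0, 28.7 and 31.8 CPM) resembled macrophages in this gene. From day 2 to day 7 Gsr was lower in macrophages (-1.77, -2.05 to -1.49) and slightly higher in monocytes (0.30, 0.13 to 0.47).

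Mgst1 divided the phagocytes in the same way, with 177, 282 and 268 CPM in monocytes and 22.9, 25.6 and 18.7 CPM in macrophages. Across 32 genes assessed in all 3 libraries, Gsr and Mgst1 alone were at least 2-fold higher in monocytes in each (background 1.67%), and none was at least 2-fold lower in each (1.67%). With Gsr and Mgst1, 10 genes had intervals above 0 in each library (background 7.07%). The smaller differences were those of Prdx5, at 953, 1023 and 1002 CPM in monocytes and 514, 476 and 564 CPM in macrophages, and of Gpx1, Gpx4, Gstp1, Prdx2, Prdx6, Taldo1 and Tkt. Prdx4 was the single gene with intervals below 0 in each (4.24%), at 140.4, 99.5 and 83.6 CPM in macrophages and 44.6, 52.7 and 38.2 CPM in monocytes. Type 2 dendritic cells set against macrophages had 0 of 29 genes at least 2-fold higher (background 1.94%) or lower (2.79%) in each library. Their intervals lay above 0 each time for Gpx1, Mgst3, Prdx6 and Taldo1 (6.01%) and below 0 for Gstm1, Prdx1 and Prdx4 (6.40%).

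The day 7 to day 2 ratios were lower in macrophages than in the other types by their medians, each over the genes assessed in that type. The medians of all genes were -0.008 in macrophages, -0.008 in type 2 dendritic cells and 0.061 in monocytes. In macrophages the median log2 ratio was -0.49, with 0 of 37 assessed genes past the fold upward (background 9.83%) and 6 downward (6.42%). In type 2 dendritic cells it was -0.20, with 1 of 32 upward (7.28%) and 2 downward (3.36%). In monocytes it was -0.11, with 11 genes above and 17 below 0, and 1 of 28 past the fold upward (5.59%) and 2 downward (2.75%). In macrophages Gclm stood at 63.3, 29.7 and 49.8 CPM at day 2, day 7 and reversal (-1.07, -1.36 to -0.76 for day 7 to day 2), Txnrd1 at 56.0, 26.6 and 44.5 CPM (-1.05, -1.36 to -0.72) and Srxn1 at 16.1, 7.20 and 20.01 CPM (-1.06, -1.62 to -0.47). These 3 genes and Prdx1 (1800.4, 938 and 1271 CPM) were lowest at day 7 in macrophages. Macrophages had median depths of 13145, 5949.5 and 6218.5 UMIs at day 2, day 7 and reversal. Monocytes had 8712, 6630 and 6377 UMIs, and type 2 dendritic cells 11114, 8857 and 8821.5 UMIs. The part of depth in these levels was not tested. In type 2 dendritic cells Gclm (25.4, 30.03 and 38.1 CPM) and Txnrd1 (48.7, 40.5 and 57.2 CPM) had day 7 to day 2 intervals that included 0. Whether the cell types differ in these ratios was not tested.

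**Figure D5:**
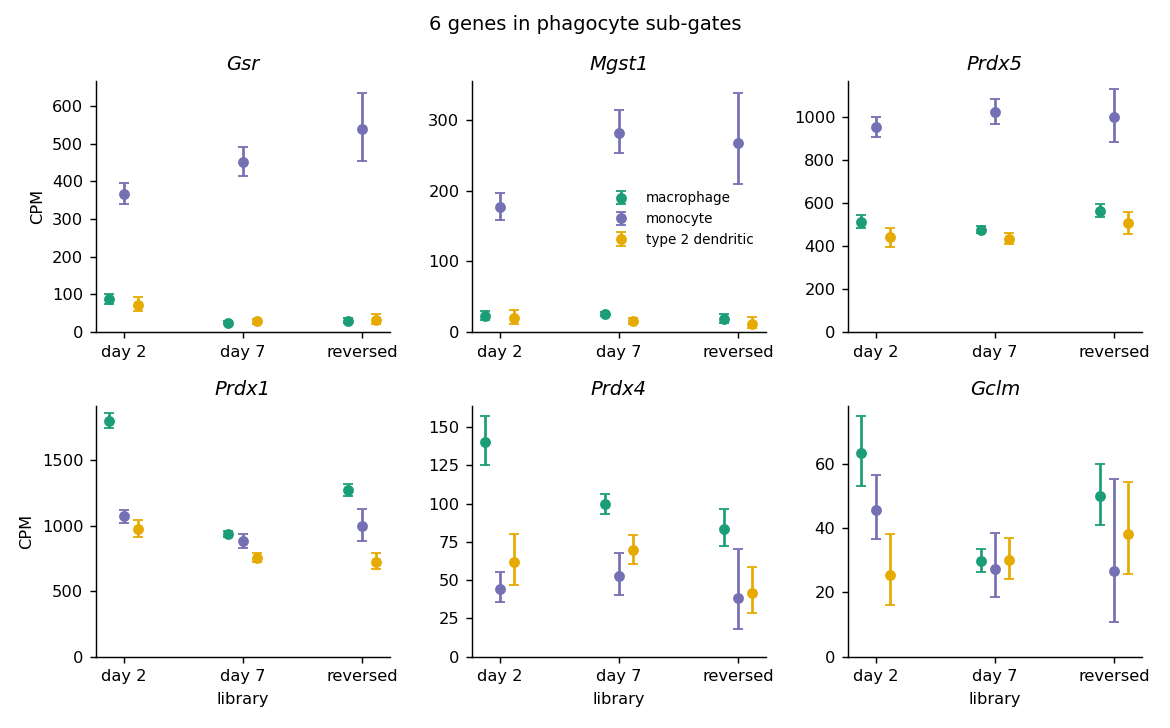
Levels in CPM (points, with exact Poisson 95% intervals) of 6 genes in macrophages, monocytes and type 2 dendritic cells of the day 2, day 7 and reversed libraries. Gsr and Mgst1 lie above the other types in monocytes throughout, and Prdx1, Prdx4 and Gclm are highest in macrophages at day 2.

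Other genes of the pathway, a list of 49 that are not among the 39, gave the following counts. In the proximal tubule 2 were higher (background 5.90%) and 2 lower (2.36%) of 39 assessed at day 2 against sham. At day 7 against day 2 there were 2 higher (5.41%) and 2 lower (2.76%) of 34, after reversal against day 7 there were 2 higher (3.96%) and 1 lower (5.00%) of 38, and after reversal against sham 2 higher (7.27%) and 1 lower (0.292%) of 42. Hmox1 stood at 19.8, 58.6, 62.6 and 34.7 CPM there, with a day 2 to sham ratio of 1.52 (1.13 to 1.91), and Oplah, which returns oxoproline to glutamate, at 33.6, 81.6, 63.9 and 38.6 CPM (1.26, 0.94 to 1.57). Dpep1, the brush-border dipeptidase that completes glutathione breakdown, stood at 216, 58.6, 56.1 and 236 CPM, low in both obstructed libraries. Ggct, which acts on gamma-glutamyl amino acids, was lowest at day 2 (69.0, 21.3, 82.2 and 58.3 CPM). From day 2 to day 7 Fth1, the ferritin heavy chain (30545 and 13822 CPM), and Slc3a2, an amino acid transporter chain (263 and 128 CPM), were lower, and Txnip, an inhibitor of thioredoxin (19.8, 22.4, 52.2 and 25.5 CPM), was highest at day 7. The remaining calls were Gstt3 (higher after reversal than at day 7) and Gpx8, Hpgds and Gsta1 (reversal against sham). Nfe2l2 itself stood at 30.1, 40.2, 61.3 and 44.2 CPM and Keap1 at 24.2, 28.2, 44.4 and 27.4 CPM.

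In phagocytes 5 of 34 were higher (background 19.8%) and 1 lower (9.07%) at day 2 against sham, and 4 of 41 were higher (7.61%) and 5 lower (3.27%) at day 7 against day 2. After reversal 3 of 42 were higher (2.39%) and 0 lower (0.925%) than at day 7, and 9 of 33 higher (18.3%) and 1 lower (5.33%) than in the sham. Hmox1 stood at 37.3, 233, 75.5 and 151 CPM and Slc7a11 at 39.6, 11.7 and 45.7 CPM at day 2, day 7 and reversal, with 0 UMIs in the sham. Against a floor of 3 UMIs in the sham library (16.0 CPM), Slc7a11 was at least 2.47-fold higher at day 2 and at least 2.86-fold higher after reversal. Both genes were lower at day 7 than at day 2, with log2 ratios of -1.62 (-1.74 to -1.49) and -1.67 (-1.96 to -1.38). Also lower from day 2 to day 7 were Msrb1, a methionine sulfoxide reductase (384 and 176 CPM), Chac2 and Aifm2, while Hpgds, a prostaglandin synthase of the transferase family (36.4 and 132 CPM), Sesn1, Anpep and Gpx7 were higher. Me1 and Dpep1 were higher after reversal than at day 7, both genes that the proximal tubule holds at higher levels (281 and 236 CPM there against 10.2 and 6.77 CPM in phagocytes). Against sham, Pgd, Blvra and Txnrd2 were higher and Msra lower at day 2, and Bach1, Txnrd2, Gstz1, Hpgds, Anpep, Me1 and Blvra were higher and Msrb1 lower after reversal. Nfe2l2 stood at 133, 169.6, 172 and 251 CPM, Keap1 at 37.3, 33.0, 47.8 and 40.6 CPM and Txnip at 117, 65.1, 124 and 173 CPM in phagocytes.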

How the data were processed

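Droplet 3′ single-cell RNA libraries of 4 mouse kidney samples were used, and a plate-based sample was not used here. The values are raw UMI counts per gene and cell, deposited by the authors as filtered matrices. Per the submitters' processing notes the names Cell Ranger, STAR, GRCm38 and mm10 apply, with versions and roles not given in the sources used here. From these counts, a cell entered if 200 or more genes were detected and mitochondrial UMIs made up 50% of its total or less. Scrublet's automatic threshold marked 1 to 3 cells a library and had not worked, so the highest doublet scores were removed at 0.8% per 1000 deposited cells. Markers were z-scored over all kept cells, and a cell took the class with the highest mean z above 0.3, at least 0.2 above the next class, with UMIs of at least 2 markers. S1, S3 and phagocyte types were split inside their gates by further markers. Nothing in the counting states how reads of near-identical genes were assigned. UMIs were summed by gate and library, for gates with at least 30 cells, and scaled to non-mitochondrial UMIs.

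With 1 library a group no model was fitted. Intervals are exact Poisson intervals for levels and exact conditional binomial intervals for ratios, at 95%. The members of the gene list, the pathway list, the markers and the rules were chosen with earlier results of these data known. By the rule, genes past a fold of 2 in proximal tubule cells or phagocytes with an interval beyond 0, or differing 4-fold between segments, are described with their values, and the others by counts and ranges. Alternatives were other scalings (CPM over all UMIs, edgeR TMM factors, DESeq2 size factors), a pseudocount of 10 CPM, no UMI minimum, at most 20% mitochondrial UMIs, doublets kept, gates taken from Leiden clusters (2000 variable genes, 30 components, 15 neighbours, resolution 1), cells weighted equally, sub-gates alone, and subtraction of free proximal tubule RNA. A further split of the phagocytes is not reported here. The tools were scanpy 1.11.5 with leidenalg 0.10.2, edgeR 4.0.16 and DESeq2 1.42.0 in R 4.3.3, and scipy 1.17.1, numpy 2.4.6, pandas 2.3.3 and matplotlib 3.10.9 in Python 3.11.15.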

Additional observations from a re-analysis of the deposited data

Results flagged for a closer look

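In 7 comparisons between gates the same gene moved past a fold of 2 in opposite directions in the same pair of libraries, with counting intervals on either side of 0. No share over all genes is given beside this count, so whether it is unusual cannot be read from it. With 1 library a group, the difference was not tested in any of these comparisons, and no alternative is given for the distal and intercalated values. From sham to day 2 the log2 ratio of Gclc was 2.04 in thick ascending limb cells and -1.10 in principal cells, 3.14 apart, and the latter was not past the fold with CPM over all UMIs or with each cell counted equally. Gsta3 was 1.08 in intercalated and -1.02 in thick ascending limb cells, 2.10 apart, but the latter was past the fold under 3 of 10 alternatives alone. Mgst1 was -1.10 in phagocytes and 1.84 in proximal tubule, 1.07 in principal and 1.47 in distal cells, which lay 2.94, 2.17 and 2.57 from the phagocyte value. That phagocyte value was -0.35 with each cell counted equally, and Mgst1 was higher in monocytes than in macrophages in the 3 later libraries. From day 7 to reversal Gstm1 was -1.30 in proximal tubule cells and 1.86 in distal and 1.10 in intercalated cells, 3.17 and 2.40 apart, and the proximal tubule value was not past the fold within S1, within S3 or in cells with at most 20% mitochondrial UMIs.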

How the results depend on the processing

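The phagocyte median of the gene list for day 2 against sham was 0.04 and became 0.94 with free RNA subtracted. In the thick ascending limb the day 2 median of -0.46 became -0.06 with it. The proximal tubule median for reversal against sham was -0.40 with TMM factors, -0.40 with DESeq2 size factors and -0.42 with at most 20% mitochondrial UMIs. The phagocyte median for reversal against day 7 was 0.021 with free RNA subtracted. In the proximal tubule, thick ascending limb, principal and phagocyte gates 81 ratios were past the fold, and other gates are not counted here. Of the 81, 72 kept their direction under every alternative that gave one and 26 of these stayed past the fold. Of the others 2 changed sign, Srxn1 in phagocytes at day 2 against sham, -0.20 with cells counted equally, and Ggt1 in phagocytes for reversal against day 7, -0.090 with free RNA subtracted. The cause was not tested. After that subtraction 11 ratios of 4 genes (Gpx3, Gsta2, Ggt1 and Txnrd1) had a level of 0 on at least 1 side and no fold is given. In 7 of them the direction turned, namely Gpx3 at day 2 and after reversal against sham in thick ascending limb cells and in phagocytes, and in phagocytes Gsta2 and Ggt1 at day 2 against sham and Gsta2 for reversal against day 7. It was kept in 3, and in 1 both levels were 0. Counts past the fold ranged from 1 to 17 upward and 1 to 7 downward in phagocytes at day 2 against sham, 1 to 8 upward for reversal against sham, 2 to 6 downward for day 7 against day 2 and 1 to 6 upward for reversal against day 7. They ranged from 1 to 4 upward and 3 to 9 downward in the thick ascending limb at day 2, 5 to 12 downward there for reversal against sham, and 3 to 6 upward and 5 to 11 downward in principal cells at day 2. In the proximal tubule every count stayed between 0 and 4. No share over all genes stands beside these ranges. The scalings moved the median of all genes by -0.18 to 0.26. Principal cells with at most 20% mitochondrial UMIs (17 sham cells) and macrophages alone (23 sham cells) gave no comparison with sham. No paired analysis was possible because each group is 1 library and the groups share no more than a replicate number. The sham library gave the fewest UMIs to the rarer gates, with 128768 in the distal gate, 187604 in phagocytes and 262764 in principal cells, and no alternative stands in for the missing replicates.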
